A study of Mus musculus with 6 samples.

Results

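Of the 10 genes, chosen by name from the glyoxalase pathway, the supply of NADPH and the glutathione and thioredoxin defences against oxidants, all were measured among the 19938 genes of the array. They are Glo1, Hagh, Nnt, Gclc, Gclm, Gsr, Gpx1, Gpx4, Txnrd1 and Prdx1. A gene was matched where the annotation of a probe set gave its symbol and no other, and where several probe sets remained the one with the highest 6-array mean was kept, a choice blind to the groups. The list was drawn up with the difference of Glo1 already known, so its members are described here and not offered as independent evidence.

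RNA was compared between 3 arrays of mouse embryonic stem (ES) cells labelled Satb1-/- (clones 1-1, 1-2 and 2-1) and 3 arrays of ES cells labelled WT and control (1, 2 and 3). ES cells are cultured cells of the early embryo that can form all its tissues, and Satb1 encodes a protein that binds DNA and organises chromatin. According to the labels and the series' design text, the cells were engineered to carry a HygroTK selection marker in the Oct4 locus. All were kept in serum medium with LIF, which holds ES cells undifferentiated, and spent 3 days under hygromycin on a layer of irradiated feeders. Feeders were reduced by settling before RNA extraction. The labels give neither the mouse strain of the lines nor whether the arrays of a group stem from independent cultures. Each p-value therefore reflects array-to-array spread alone, some of which could be technical, and the first number of a clone is left unexplained in the labels.

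Values are log2 expression values as the authors deposited them, and every difference below is Satb1-/- minus WT on that scale. Satb1 itself read 4.38, 4.47 and 4.57 in Satb1-/- arrays and 5.12, 4.99 and 5.31 in WT arrays, and fell by 0.67 (SE 0.12, limma adjusted p = 0.022). It missed the threshold without WT array 1 or any one Satb1-/- array (-0.74 to -0.58 over all 6 omissions), and where its probes sit relative to the deletion is not known, so the drop does not check the knockout. Across the genes, 184 were higher and 95 lower at an adjusted p under 0.05 (limma, Benjamini-Hochberg over all genes), or 159 and 47 with each array centred and 242 and 183 after a second quantile normalization, and the median difference was 0.00. WT array 3 stood apart on the second principal component (score 29.3, against -13.1 to -0.5 for the other 5 arrays), and WT array 1 on the first (26.7, against -15.5 to -12.7 in Satb1-/- arrays and 3.7 and 10.6 in the other WT arrays). Both had low array weights (0.45 for WT array 3 and 0.46 for WT array 1, against 1.08 to 1.99 for the others), so values without either are given where they change a call. The counts were 356 and 124 without WT array 3 and 112 and 76 without WT array 1, and lay between 74 and 93 and between 19 and 28 without any one Satb1-/- array. Of 14 markers of naive ES cells, all lay above the median gene, and the Oct4 gene Pou5f1 read 9.83 ± 0.07 in Satb1-/- and 10.22 ± 0.28 in WT (SD, n = 3 each; adjusted p = 0.309). Of these markers 5 rose (Nanog, Esrrb, Klf4, Klf5 and Tfcp2l1), where 0.923% of all genes did, and 9 of the 14 had a difference above 0. Pou5f1, Dppa4 (-0.39) and Tdgf1 (-0.06) read lower in every Satb1-/- array than in any WT array, without passing. The mean level of the list, each gene set against its own 6-array mean, was 0.11 to 0.18 in Satb1-/- and -0.27 to -0.04 in WT. Of 17 measured feeder fibroblast markers 0 passed limma's adjusted threshold (3 at an unadjusted p under 0.05, which 10.5% of all genes had). Their list levels were -0.01 to 0.18 in Satb1-/- and -0.29 to 0.08 in WT. Among 8 trophectoderm markers Krt8 (-2.72) and Krt18 (-2.48) fell, with list levels of -0.38 to -0.21 in Satb1-/- and 0.11 to 0.68 in WT. The other 6 did not pass, and of these Eomes (0.55, adjusted p = 0.068) and Tfap2c (0.33, adjusted p = 0.246) read higher in every Satb1-/- array than in any WT array. Of 8 primitive endoderm markers 0 passed limma's adjusted threshold (1 at an unadjusted p under 0.05). The part of these markers in the results below was not tested.

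Methylglyoxal is a reactive by-product of glycolysis that damages proteins and DNA. It joins spontaneously with glutathione, and the adduct is turned by glyoxalase 1 (Glo1) into lactoylglutathione, from which glyoxalase 2 (Hagh) releases lactate and free glutathione. Glutathione is made by glutamate-cysteine ligase, with its catalytic (Gclc) and modifier (Gclm) subunits, and is kept reduced by glutathione reductase (Gsr) at the cost of NADPH. The mitochondrial transhydrogenase Nnt makes NADPH from NADH with the proton gradient, and the peroxidases Gpx1, Gpx4 and Prdx1 and the thioredoxin reductase Txnrd1 spend reducing power on peroxides and oxidised thiols. Many genes of this system are known targets of the transcription factor NRF2, which binds the antioxidant response element. Glo1 lies in a segment whose copy number is known to differ between inbred mouse strains, and the C57BL/6J strain is known to carry a deletion within Nnt.

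To show the regulatory sequence beside the values, the promoters of Glo1 and of 3 members with a match to the core of the antioxidant response element were taken from RefSeq (build GRCm38.p6). Each is the 250 bases before a start site, printed 5′ to 3′ on the gene's strand, with the match in capitals. The core searched was TGACNNNGC, on both strands as TGACNNNGC and GCNNNGTCA, and it was the only motif searched.
Glo1, chr17:30612660-30612909, minus strand, with 0 matches: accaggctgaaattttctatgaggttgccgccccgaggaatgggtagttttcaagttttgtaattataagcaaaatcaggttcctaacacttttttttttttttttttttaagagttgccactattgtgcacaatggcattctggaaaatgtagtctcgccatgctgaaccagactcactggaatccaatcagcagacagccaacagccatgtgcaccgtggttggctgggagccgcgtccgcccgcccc
Gclm, chr3:122245307-122245556, plus strand, with 1 match: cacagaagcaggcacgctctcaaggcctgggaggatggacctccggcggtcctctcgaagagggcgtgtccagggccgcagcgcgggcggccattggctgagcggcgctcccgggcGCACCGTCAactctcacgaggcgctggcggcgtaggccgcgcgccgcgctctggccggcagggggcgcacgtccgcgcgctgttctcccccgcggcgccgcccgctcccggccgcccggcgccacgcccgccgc
Prdx1, chr4:116685349-116685598, plus strand, with 1 match: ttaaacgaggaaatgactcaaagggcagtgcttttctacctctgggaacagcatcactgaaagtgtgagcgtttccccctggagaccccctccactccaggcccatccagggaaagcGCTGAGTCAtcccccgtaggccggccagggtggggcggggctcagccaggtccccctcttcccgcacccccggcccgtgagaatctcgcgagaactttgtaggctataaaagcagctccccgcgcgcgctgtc
Txnrd1, chr10:82858956-82859205, plus strand, with 1 match: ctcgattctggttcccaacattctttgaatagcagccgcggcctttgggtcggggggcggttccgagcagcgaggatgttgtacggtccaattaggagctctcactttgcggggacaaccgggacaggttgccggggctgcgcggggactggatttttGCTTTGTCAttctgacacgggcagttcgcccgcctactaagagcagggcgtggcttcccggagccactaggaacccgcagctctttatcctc
Read on the strand of the motif, the matches were TGACGGTGC in Gclm, TGACTCAGC in Prdx1 and TGACAAAGC in Txnrd1, each on the strand opposite to the gene. As printed, on the gene's strand, the capitals begin 134, 133 and 92 bases before the start site. RefSeq windows of 300 bases (250 before and 50 after a start) were matched for 7 of the 10 members, 13 windows in all. Nnt, Gclc and Gsr had no window and were not searched. Among the 7, 4 members had a match in at least 1 window. The match of the other, Hagh, was TGACGCGGC and began at base 21 after a start site. Of all 32851 windows 12.4% held the core, or 14.0% of 27025 genes counted over all their windows. The 3 genes with a match before the start differed by -0.25 (Gclm), 0.11 (Prdx1) and -0.04 (Txnrd1), and none of these passed the test. The Glo1 window holds no match to this core, which says nothing about what binds there.

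In the Satb1-/- arrays Glo1 was higher and Nnt lower, and the other 8 genes did not pass the test. In such bulk RNA, fewer cells that express a gene and less RNA per cell cannot be told apart. That makes 2 of 10, where 1.4% of all genes passed in either direction, 0.923% as higher and 0.476% as lower. With the list drawn up from earlier results, nothing is read from that share. The groups did not overlap for 4 of the 10 (Glo1, Nnt, Gclm and Gsr), where 15.1% of all genes had groups apart. Among the 9969 genes above the median gene in mean level, the groups did not overlap for 1990, and 2.54% passed the test. The median of the 10 differences was -0.05, and all 10 genes lay above the median gene in mean level, a filter that did not use the groups. The plot of values by array shows both shifts and the wide spread of Gpx1 and Gpx4 in WT.

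**Figure D1:**
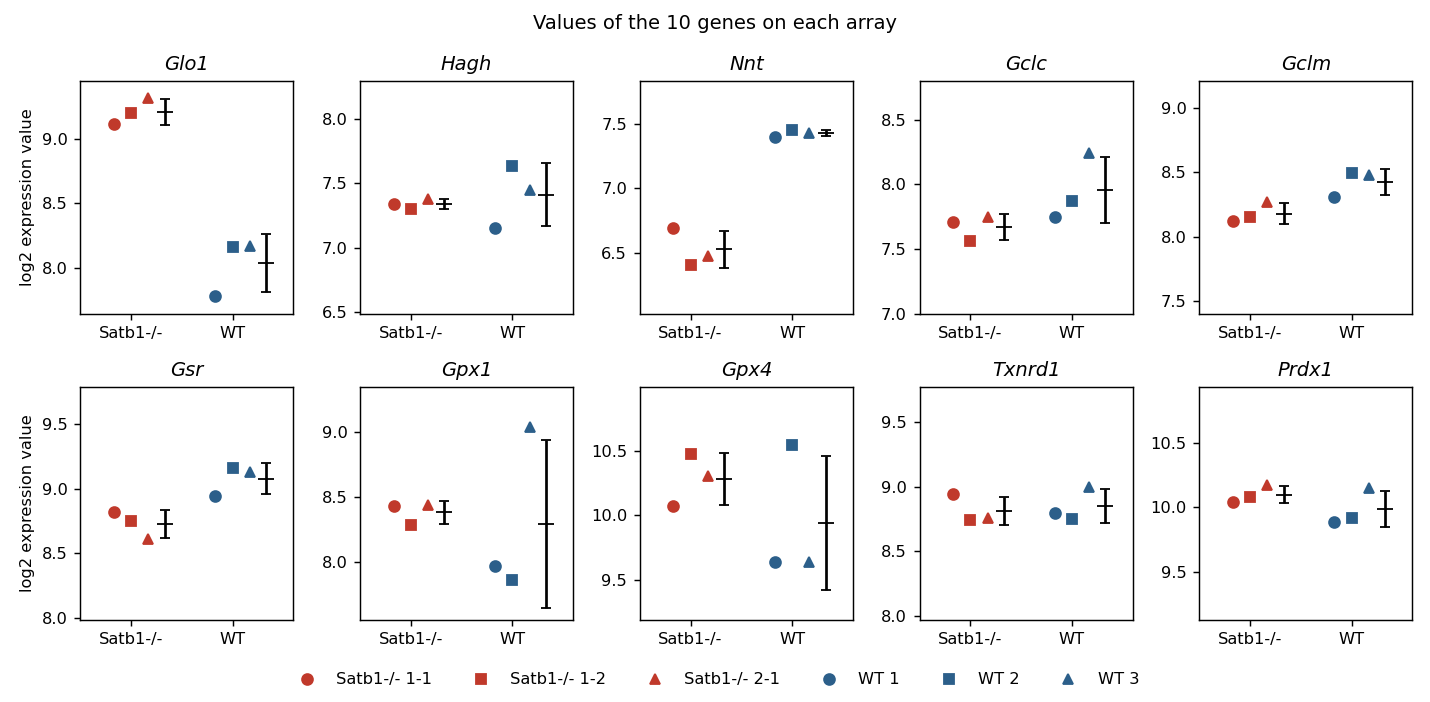
Log2 expression values (y axis, each panel spanning the same range of log2 units) of the 10 genes in 3 Satb1-/- arrays (red) and 3 WT arrays (blue). Points are arrays and bars show mean ± SD. The Satb1-/- points of Glo1 (9.11 to 9.31) sit above all WT points, those of Nnt (6.41 to 6.69) below all WT points, and WT array 3 is high for Gpx1 at 9.04.

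Of the glyoxalase genes, only Glo1 moved past the threshold. Glo1 (Entrez 109801, chromosome 17, 30592861 to 30612659 in GRCm38.p6) read 9.11, 9.20 and 9.31 in Satb1-/- arrays 1-1, 1-2 and 2-1, against 7.78, 8.16 and 8.17 in WT arrays 1, 2 and 3. The lowest Satb1-/- value lay 0.94 above the highest WT value, which is more than the range within either group (0.20 in Satb1-/- and 0.39 in WT). The difference was 1.17 (SE 0.13, 95% interval 0.88 to 1.46, limma adjusted p = 0.00155), a fold of 2.25. Its other probe set read 9.03 ± 0.09 in Satb1-/- and 7.84 ± 0.19 in WT (SD, n = 3 each), a difference of 1.19. Both probe sets come from the same 6 RNA samples, and it is not known here whether they share probes or detect a near-identical copy. Leaving out any 1 array gave differences of 1.04 to 1.24, all past the threshold. With values below the median of all genes set to that median, the difference stayed at 1.17 and missed the threshold (adjusted p = 0.144).

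Hagh, which encodes the second enzyme of the pathway, read 7.34, 7.30 and 7.38 in Satb1-/- arrays and 7.15, 7.63 and 7.45 in WT arrays. The Satb1-/- values lay inside the WT range. The difference was -0.07 (95% interval -0.36 to 0.22, adjusted p = 0.944), an interval that runs from a fold of 0.782 to a fold of 1.16 and does not include the size seen for Glo1. Among 10 measured genes listed under glyoxalase and methylglyoxal handling, 1 rose and 0 fell. A difference above 0 was seen for 9 of them, and for 9679 of all 19938 genes and 5375 of 9969 brighter ones. The median of the 10 was 0.13. After Glo1 the largest differences were those of the glyoxalase-domain genes Glod5 (0.28, adjusted p = 0.445) and Glod4 (0.21, adjusted p = 0.657).

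Next to Glo1 on chromosome 17, the genes that adjoin it on either side also read higher. Btbd9, which encodes a BTB-domain protein, read 7.31, 7.22 and 7.23 in Satb1-/- arrays and 6.71, 6.92 and 6.78 in WT arrays (difference 0.45, SE 0.10, adjusted p = 0.0718). Its groups did not overlap, but it missed the threshold. Dnah8, which encodes a dynein heavy chain of cilia and sperm tails, read 5.25, 5.38 and 5.24 in Satb1-/- arrays and 4.47, 4.89 and 4.16 in WT arrays. It rose by 0.78 (SE 0.16) at the edge of the threshold (adjusted p = 0.04997), and missed it without WT array 1 or any one Satb1-/- array (0.61 to 0.98 over all 6 omissions, adjusted p = 0.00901 to 0.225). Dnah8 lay below the median gene in mean level, where a log2 difference may understate a change or reflect noise.

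Further along the chromosome the differences were smaller and of either sign. Beyond Dnah8, Glp1r, the receptor gene of an incretin hormone, read 4.36, 4.19 and 4.28 in Satb1-/- arrays and 4.72, 4.63 and 4.50 in WT arrays, a difference of -0.34 (adjusted p = 0.215) in the other direction. On the side of Btbd9 the next gene, Zfand3, differed by -0.04, followed by Mdga1 (-0.13), Ccdc167 (0.00) and Tbc1d22b (0.12). After Glp1r came Umodl1 (-0.06), Abcg1 (0.01) and Tff3 (-0.16). Glp1r, Umodl1 and Tff3 lay below the median gene in mean level, so little can be read from their differences. Over the 10 measured genes on each side of Glo1 the median difference was -0.01 (range -0.34 to 0.78), and 1 of the 20, Dnah8, passed the test. The median of the 481 brighter genes of chromosome 17, those above the median gene in level, was 0.02. Copy number was not measured here.

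**Figure D2:**
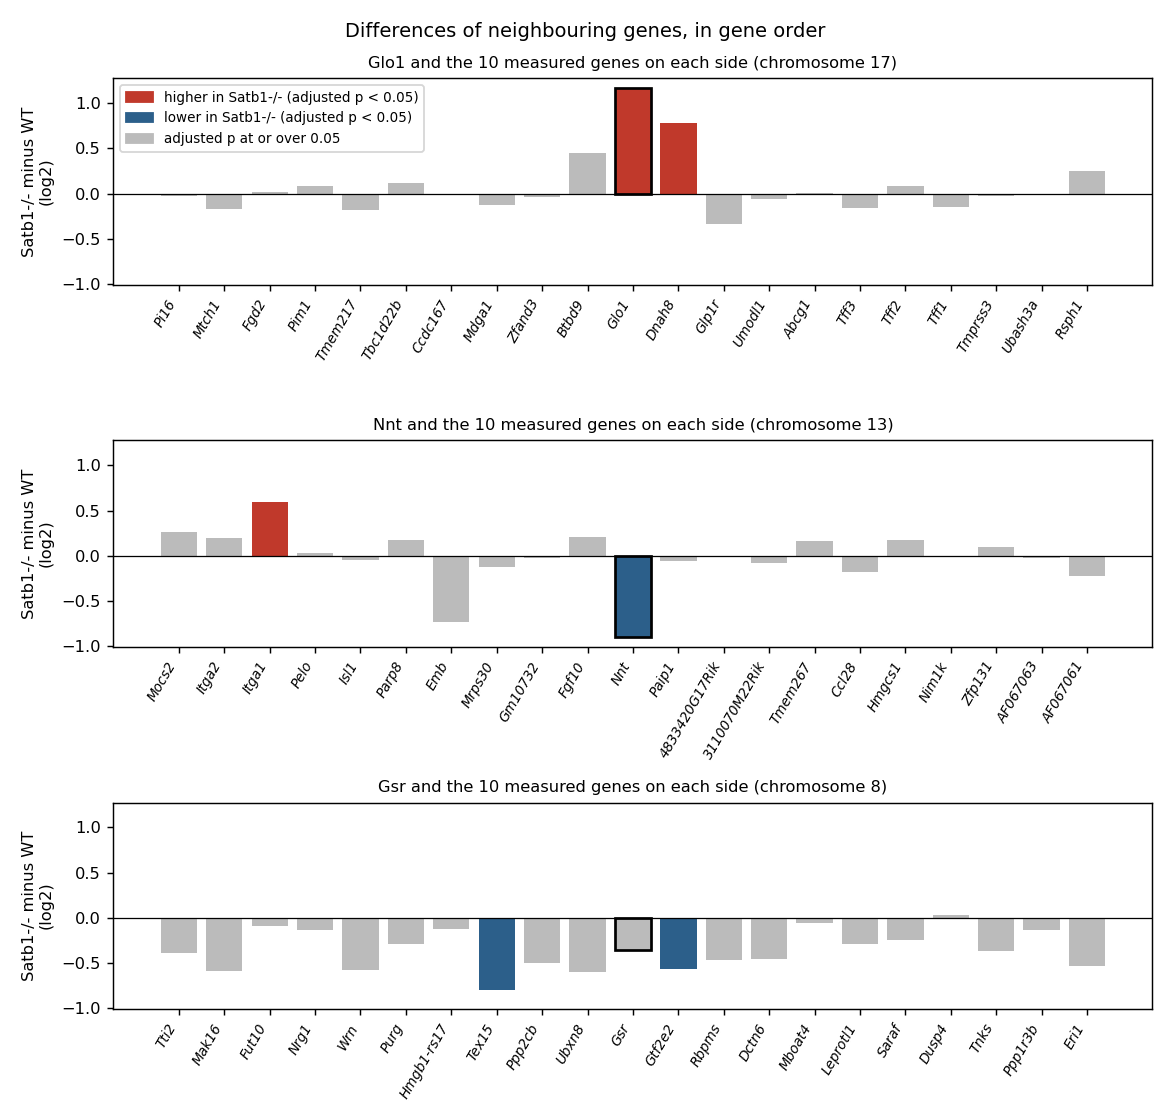
Differences, Satb1-/- minus WT in log2 units (y axis), of Glo1, Nnt and Gsr (outlined bars) and of the 10 measured genes on each side in RefSeq gene order (x axis). Colour marks genes past an adjusted p of 0.05. Btbd9 (0.45), Glo1 (1.17) and Dnah8 (0.78) stand above a flat surrounding, Nnt (-0.90) is low beside flat adjoining genes, and nearly all bars around Gsr lie below 0 (range -0.80 to 0.03).

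Nnt, a mitochondrial source of NADPH, was lower in every Satb1-/- array. Nnt (Entrez 18115, chromosome 13, 119335527 to 119409257 in GRCm38.p6) read 6.69, 6.41 and 6.48 in Satb1-/- arrays and 7.40, 7.45 and 7.43 in WT arrays. All WT values lay within 0.05 of each other, and the lowest of them was 0.71 above the highest Satb1-/- value. The gene fell by 0.90 (SE 0.11, 95% interval -1.15 to -0.66, limma adjusted p = 0.0027), a fold of 0.535. Leaving out any 1 array gave -0.98 to -0.84, with adjusted p-values of 0.00261 to 0.0319. Under the same floor it stayed at -0.90 and missed the threshold (adjusted p = 0.0993). Nnt had 1 probe set, which gives 1 value for the transcript and does not resolve its exons.

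The genes that adjoin Nnt had small differences, and neither passed the test. Fgf10, a growth factor gene, differed by 0.21 and Paip1, which encodes a partner of the poly(A)-binding protein, by -0.06 (adjusted p = 0.591 and 0.945). The next genes outwards, Gm10732 and 4833420G17Rik, differed by -0.02 and -0.01. Among the 20 neighbours the median was -0.01. The integrin gene Itga1 rose by 0.59 (adjusted p = 0.0264), and the embigin gene Emb differed by -0.73 (adjusted p = 0.0501). These last genes were named after their values were seen, and Itga1 missed the threshold without WT array 1 or any one Satb1-/- array. Emb passed it without WT array 1 (-0.88, adjusted p = 0.0262).

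Of 16 measured genes that supply NADPH 1 fell, Nnt, and 0 rose. A difference above 0 was seen for 10 of them, and for 9679 of all 19938 genes. The median of the 16 was 0.07. Idh2, the NADPH-forming isocitrate dehydrogenase of mitochondria, had the largest difference after Nnt, with 8.82 ± 0.32 in Satb1-/- and 7.98 ± 0.46 in WT (SD, n = 3 each; difference 0.84, adjusted p = 0.124), and it passed without WT array 2 (1.10, adjusted p = 0.021). Its cytosolic counterpart Idh1 differed by 0.35 (adjusted p = 0.428), and Pgd, of the pentose phosphate pathway, by 0.38 (adjusted p = 0.481), or by 0.60 without WT array 3 (adjusted p = 0.0216); both were named after their values were seen.

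The 3 members that make glutathione or keep it reduced (Gclc, Gclm and Gsr) read lower in Satb1-/- arrays, and none passed the test. Gclc, the catalytic subunit gene, read 7.71, 7.56 and 7.75 in Satb1-/- arrays and 7.75, 7.87 and 8.24 in WT arrays (difference -0.28, 95% interval -0.58 to 0.03, adjusted p = 0.543). Its groups met at 7.75, and WT array 3 held the highest value. Without that array the difference was -0.14 (adjusted p = 0.619). Gclm, the modifier subunit gene, read 8.12, 8.15 and 8.27 in Satb1-/- arrays and 8.31, 8.49 and 8.48 in WT arrays (difference -0.25, 95% interval -0.48 to -0.01, adjusted p = 0.447). The groups were separated by 0.04, less than the range within either of them.

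Gsr, the glutathione reductase gene of chromosome 8, read 8.82, 8.75 and 8.61 in Satb1-/- arrays and 8.94, 9.16 and 9.13 in WT arrays. The groups were separated by 0.12, and the difference was -0.35 (95% interval -0.60 to -0.10, adjusted p = 0.223). Chromosome 8 was low along its length in these arrays, with a median of -0.29 over its 570 brighter genes, of which 7.72% had a difference above 0. The 10 measured genes on each side of Gsr had a median of -0.38 (range -0.80 to 0.03), and 2 of the 20 fell, Gtf2e2 next to it (-0.57) and Tex15 (-0.80). The median was -0.47 with 5 genes on each side and -0.14 with 20. These medians include dim genes, unlike that of the chromosome. Over the brighter neighbours alone it was -0.47, -0.43 and -0.30 with 5, 10 and 20 genes on each side. The value of Gsr lay within the range of its neighbours. In contrast, the 20 neighbours of Gclc had a median of 0.04 and those of Gclm one of -0.01. Over the brighter ones alone the medians were 0.15 for Gclc and 0.00 for Gclm.

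Over the wider list of glutathione synthesis and turnover, 0 of 17 measured genes passed limma's adjusted threshold. At an unadjusted p under 0.05 the count was 6, where 10.5% of all genes and 1640 of the 9969 brighter genes passed. The median of the list was 0.01. The largest differences were those of Cth, which makes cysteine from cystathionine (-0.56, adjusted p = 0.607), and of Gss, the glutathione synthetase gene (0.49, adjusted p = 0.157). Without WT array 3 Gss passed the test, at 0.65 (adjusted p = 0.00977). Gss acts directly after the ligase formed by Gclc and Gclm, and its value lay in the other direction.

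**Figure D3:**
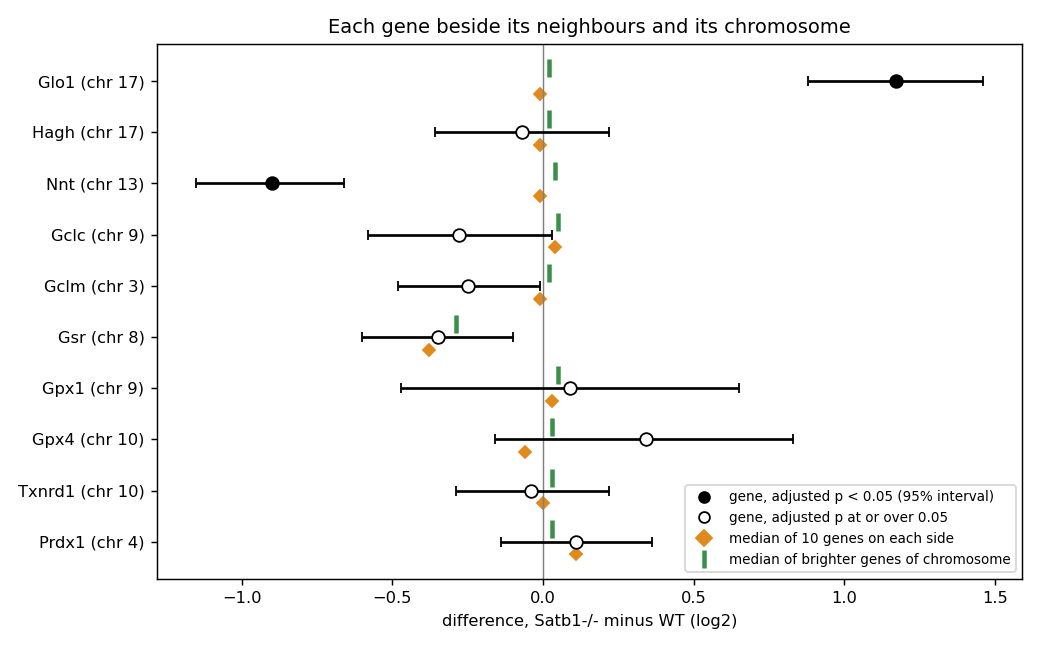
Difference of each of the 10 genes, Satb1-/- minus WT in log2 units (x axis), with its 95% interval from limma; filled circles passed an adjusted p of 0.05. Diamonds give the median of the 10 measured genes on each side and green ticks the median of the brighter genes of the chromosome. Glo1 (1.17) and Nnt (-0.90) lie far from both. Gsr (-0.35) lies near the median of the 10 genes on each side (-0.38) and that of chromosome 8's brighter genes (-0.29). With 20 genes on each side the median is -0.14 over all of them and -0.30 over the brighter ones.

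The peroxidase and thioredoxin genes gave no difference past the threshold, and single WT arrays set the spread of some of them. Gpx1, the cytosolic glutathione peroxidase gene, read 8.43, 8.28 and 8.44 in Satb1-/- arrays and 7.97, 7.86 and 9.04 in WT arrays. WT array 3 lay above all Satb1-/- arrays and the other WT arrays below them, and the difference was 0.09 (95% interval -0.47 to 0.65, adjusted p = 0.964). Without WT array 3 it was 0.46 (adjusted p = 0.0635), and it turned negative without WT array 1 or 2 (-0.07 and -0.12). The interval thus allows a fold of 0.72 to 1.57.

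Gpx4, which reduces lipid peroxides in membranes and guards against ferroptosis, read 10.07, 10.47 and 10.30 in Satb1-/- arrays and 9.64, 10.54 and 9.64 in WT arrays. Here WT array 2 was the one above all others. The difference was 0.34 (95% interval -0.16 to 0.83, adjusted p = 0.708), or 0.64 (adjusted p = 0.068) without that array. It was 0.19 without WT array 1 or WT array 3, and 0.04 when arrays were weighted. The other probe set of Gpx4 followed the same order of arrays, with 9.70, 10.06 and 9.89 in Satb1-/- and 9.28, 10.14 and 9.25 in WT (difference 0.32). Whether the probe sets of Gpx4 share probes or detect a near-identical copy is not known here. Gpx1 was thus highest in WT array 3 and Gpx4 in WT array 2.

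Txnrd1, which reduces thioredoxin with NADPH, had the smallest difference of the 10 genes. It read 8.94, 8.74 and 8.76 in Satb1-/- arrays and 8.80, 8.75 and 9.0 in WT arrays (difference -0.04, 95% interval -0.29 to 0.22, adjusted p = 0.968). Prdx1, an abundant peroxiredoxin of the cytosol, read 10.04, 10.08 and 10.17 in Satb1-/- arrays and 9.89, 9.92 and 10.15 in WT arrays (difference 0.11, 95% interval -0.14 to 0.36, adjusted p = 0.854). The groups of both genes overlapped. For Prdx1 the other probe set differed by 0.08, and the 20 neighbours of Prdx1 on chromosome 4 had a median of 0.11, the same as the kept probe set. It is not known here whether the probe sets of Prdx1 share probes or detect a near-identical copy. For neither Txnrd1 nor Prdx1 does the interval include the size of change seen for Glo1 or Nnt.

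Together the 10 pathway lists held 128 measured genes, of which 3 rose and 2 fell, with a median of 0.08. That is 3.91%, where 1.4% of all genes and 2.54% of brighter genes passed. The lists were chosen with earlier results known and include Glo1 and Nnt, so nothing is read from that share. Without WT array 3 the counts were 9 and 2, without WT array 2 they were 5 and 1, without WT array 1 they were 2 and 2, and without any one Satb1-/- array 2 and 1. The changed genes besides Glo1 and Nnt were Txnip, Eefsec and Lpcat3. Txnip, which encodes the inhibitor of thioredoxin, read 9.07 ± 0.01 in Satb1-/- and 9.75 ± 0.25 in WT (SD, n = 3 each) and fell by 0.67 (SE 0.13, adjusted p = 0.0358). It missed the threshold without WT array 2 or any one Satb1-/- array, and with each array centred (adjusted p = 0.0621).

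Lpcat3, whose enzyme puts polyunsaturated fatty acids into phospholipids, the substrates of ferroptosis, read 8.27 in the mean of Satb1-/- arrays and 7.07 ± 0.31 in WT arrays (SD, n = 3). It rose by 1.19 (SE 0.15, adjusted p = 0.0027), and it kept the call without any 1 array (1.04 to 1.35), but missed the threshold in a fit over all probe sets (adjusted p = 0.0508). Of its 20 neighbours on chromosome 6, 7 rose too. The median of all 20 was 0.21, and the 7 brighter ones had a median of 1.13. Eefsec, the elongation factor that inserts selenocysteine into Gpx1, Gpx4 and Txnrd1, rose by 0.50 (SE 0.10, adjusted p = 0.0408), but missed the threshold without WT array 1 or 2 or any one Satb1-/- array. Its 20 neighbours on the same chromosome had a median of 0.02. The other 6 genes for selenoprotein synthesis differed by -0.10 (Sephs2) to 0.07 (Sephs1).

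**Figure D4:**
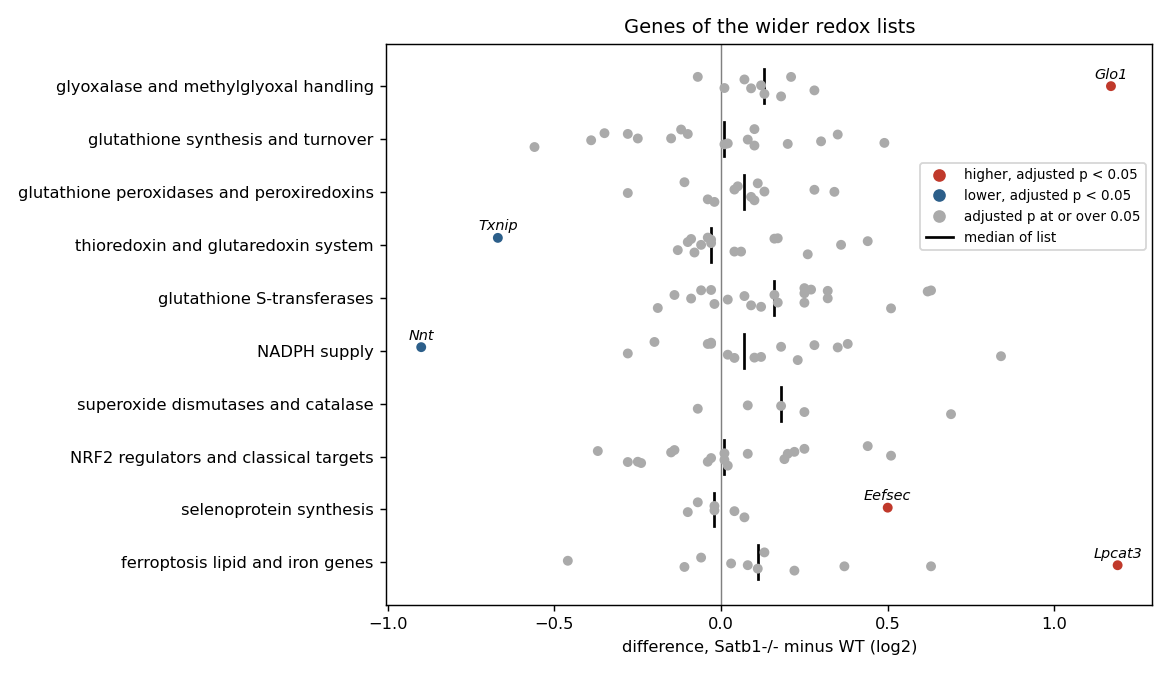
Differences, Satb1-/- minus WT in log2 units (x axis), of the measured genes of 10 redox lists (y axis). Points are genes, coloured where past an adjusted p of 0.05, and black lines are list medians. Named genes are the 5 that passed (Glo1, Nnt, Txnip, Eefsec and Lpcat3), and list medians lie between -0.03 and 0.18.

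In 5 of the 10 lists 0 genes passed limma's adjusted threshold, although some genes came close to it. At an unadjusted p under 0.05, 6 genes of glutathione synthesis and turnover, 5 glutathione S-transferases, 3 of the NRF2 list, 2 of superoxide dismutases and catalase and 0 peroxidases or peroxiredoxins passed. Of all genes 10.5% passed at that threshold, and 1640 of the 9969 brighter genes did. Among 21 measured glutathione S-transferases, which attach glutathione to foreign or oxidised compounds, the median was 0.16 and 15 differences were above 0 (9679 of 19938 over all genes). Gsta4, which acts on products of lipid peroxidation, read 10.58 ± 0.06 in Satb1-/- and 9.95 ± 0.25 in WT (difference 0.63, SD, n = 3 each, limma adjusted p = 0.0539). Gsto1 differed by 0.62 (adjusted p = 0.0593). Without WT array 3 both passed, at 0.75 for Gsta4 (adjusted p = 0.00711) and 0.74 for Gsto1 (adjusted p = 0.00975). In the list of superoxide dismutases and catalase, Sod2, the mitochondrial dismutase gene, read 8.87 ± 0.11 in Satb1-/- and 8.18 ± 0.32 in WT (difference 0.69, SD, n = 3 each, limma adjusted p = 0.0632), and Cat differed by 0.25 (adjusted p = 0.471). Sod2 also passed without WT array 3, at 0.86 (adjusted p = 0.00307). Among 12 measured peroxidases and peroxiredoxins the median was 0.07, and the largest differences were those of Gpx4, Gpx8 (0.28, adjusted p = 0.652) and Prdx4, a peroxiredoxin gene, in the other direction (-0.28, adjusted p = 0.698).

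Of 18 measured regulators and classical targets of NRF2, 0 passed limma's adjusted threshold (3 at an unadjusted p under 0.05). Their median was 0.01, and 10 had a difference above 0, as did 9679 of all 19938 genes. Nqo1, a quinone reductase gene and common readout of NRF2, read 6.54 ± 0.10 in Satb1-/- and 6.03 ± 0.65 in WT (difference 0.51, SD, n = 3 each, limma adjusted p = 0.557). Without WT array 3 its difference was 0.85 and passed (adjusted p = 0.0179). Srxn1, which repairs overoxidised peroxiredoxins, differed by 0.44 (adjusted p = 0.114), while Gclc and Gclm of the same list read lower, as above. At an unadjusted p under 0.05, 27 of the 128 genes of all lists would pass, and 10.5% of all genes. Of the 9969 brighter genes 1640 would, and 101 of the 128 list genes are among these brighter genes.

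Over the 6 arrays, the genes whose pattern was most like that of Glo1 were 9530068E07Rik (Pearson's r = 0.999), Bcl2l13 (0.998), Gfpt2 (0.997), Pex5 (0.996) and Ak4 (0.995), out of 1493 genes with an SD of at least 0.3. All 5 were higher in Satb1-/- and low in WT array 1, as Glo1 was. These genes were picked for likeness over the same 6 arrays that hold both groups, so the correlations are a description. Bcl2l13 and Pex5 lie on chromosome 6, 9530068E07Rik and Gfpt2 on chromosome 11 and Ak4 on chromosome 4, so none of them adjoins Glo1.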

How the data were processed

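RNA of 6 ES cell samples was labelled with biotin and measured on 1-colour arrays, 3 per group. The authors deposited log2 expression values made with RMA, per the submitters' processing notes; its version and settings are not given in these sources. There were 35557 probe sets, 0 missing values and array medians of 4.69 to 4.85. The platform annotation gave 21789 probe sets 1 symbol and 1621 several; 12147 are unnamed here, and only those with 1 symbol were used to name a gene (19938 genes). Satb1-/- and WT were compared by limma 3.58.1 in R 4.3.3 (lmFit, eBayes; neither covariates nor filters), two-sided, with Benjamini-Hochberg adjustment over all genes; every adjusted p in the text is limma's. The steps were tested on simulated data. Gene order, coordinates and promoters came from RefSeq (GRCm38.p6); the build behind the array is not stated. Members and lists were chosen with earlier results of these data known. The naming rule covered the 10 members, Satb1, near neighbours (5 on each side of Glo1, 2 on each side of the others), up to 4 changed genes of each list or otherwise its 2 largest differences, and the 5 genes most like Glo1; other names were chosen after their values were seen. Alternatives left out single arrays or changed weights, scaling, filter, floor, variance prior or probe set. Arrays have no read depth, and their number limits the precision.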

Additional observations from a re-analysis of the deposited data

How the results depend on the processing

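Glo1 kept its direction and call under 16 of 17 alternatives (1.04 to 1.24) and Nnt under 15 of 16 (-0.98 to -0.84). The exception for both was a floor at the median level, which left the differences at 1.17 (adjusted p = 0.144) and -0.90 (adjusted p = 0.0993) and 0 of 10 members past the threshold (2 in the main setting). That floor left 9100 genes with no spread, which enter the variance estimate that limma shares. At an unadjusted p under 0.05 in the main setting 4 of 10 members passed, where 10.5% of all genes did. None of the other 8 members passed at an adjusted p under 0.05 in any alternative run; the 2 added at the unadjusted threshold were Gclm and Gsr. Signs turned for Hagh (-0.20 to 0.04 over the omissions of 1 array, positive without WT array 2), Gpx1 (-0.12 to 0.46, negative without WT array 1, at -0.07, or 2) and Txnrd1 (-0.10 to 0.04, positive without WT array 3, and 0.01 with array weights). The counts of 184 higher and 95 lower genes became 373 and 235 when arrays were weighted, 90 and 27 when Satb1-/- arrays 1-1 and 1-2 were averaged into 1 sample, 12 and 1 with the floor, 68 and 15 over all probe sets, 86 and 23 at an adjusted p under 0.01, and 59 and 17 with a difference of at least 1. Lower genes were 183 after a second quantile normalization and 47 with each array centred. Omitting single arrays moved the higher genes between 74 and 356 and the lower ones between 19 and 124, the most without WT array 3 (356 and 124) and the fewest without a Satb1-/- array. The lists shifted as well. With the floor, the lists of glyoxalase, thioredoxin, NADPH, selenoprotein and ferroptosis genes held 0 calls (1 each in the main setting), and the transferases had a median of 0.00. Array weights gave 2 calls each for glutathione synthesis (median -0.04), thioredoxin and the transferases, and 1 each for the dismutases and catalase (median 0.12) and NRF2. The transferases had 2 calls after a second quantile normalization and among brighter genes (median 0.08), and 1 with trend and robust; the dismutases and catalase had 1 after that normalization and among brighter genes, and a median of 0.14 with arrays 1-1 and 1-2 averaged. Calls fell to 0 for thioredoxin with that average, with each array centred and over all probe sets, for selenoproteins with that average, the second normalization, trend and robust, and all probe sets, and for ferroptosis over all probe sets. Omitting single arrays gave 0 to 1 call for glutathione synthesis (median -0.07 to 0.05), thioredoxin (-0.05 to 0.06), dismutases and catalase (0.11 to 0.24), NRF2 (-0.06 to 0.05) and selenoproteins, 0 to 2 for the transferases, and 1 to 2 for NADPH (-0.02 to 0.12) and ferroptosis. The cause of these shifts was not tested. The median of the neighbours of Glo1 was -0.02 with 5 and 0.00 with 20 genes on each side, while that of Gsr moved more (-0.47 and -0.14, against -0.38 with 10). Over the brighter neighbours of Gsr alone it moved less (-0.47 and -0.30, against -0.43 with 10). The antioxidant response core lay in 10.2% of windows when only bases before the start were searched. No paired analysis was possible because the array numbers of the groups are not shared.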
